A study of Homo sapiens with 4 samples.

Results

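RAB GTPases and the TBC1D family of RAB regulators were examined for m6A, the N6-methylated form of adenosine found within mRNA. The set comprised coding genes whose symbol is RAB followed by digits, with a letter suffix allowed, or TBC1D followed by digits. It held 63 RAB and 43 TBC1D genes, 106 of the 20056 coding genes in the annotation used. Their transcripts carried 138 of the 23623 peaks listed for a library named Ctrl and 132 of the 23134 peaks listed for a library named Cas.

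The study applied MeRIP-seq, the capture of RNA fragments by an anti-m6A antibody followed by sequencing, to HEK293T cells, a human embryonic kidney line. It addressed targeted methylation of sites in YTHDF2, SPEN and GAPDH. For both groups the labels give the same treatment, a guide RNA and a construct named dCas13b-M14 delivered together with polyethylenimine and a harvest 24 h later, so that the labels do not tell what set Ctrl apart from Cas. Each group was represented by 1 immunoprecipitated library, without replicates. No gene in the set is named as a target. The peak lists carry positions and no read counts or scores, so depth is unknown, and every difference between Ctrl and Cas described here is one between 2 libraries, with no test.

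RAB proteins are small GTPases that sit on the membranes of particular organelles and, when bound to GTP, recruit effectors that move, tether and fuse vesicles. Exchange factors load them with GTP, and GTPase-activating proteins (GAPs), most of which share the TBC domain, return them to the GDP-bound state. The m6A mark is deposited on mRNA by a nuclear methyltransferase complex that prefers the sequence context called DRACH, is frequent near stop codons and in long exons, and is bound by reader proteins that affect mRNA decay and translation.

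The stretches below lie inside peaks that overlapped between Ctrl and Cas and hold GGACT, a frequent form of DRACH, within 20 nt of the position that the authors list inside the peak of at least 1 library. They are shown because, as measured on the transcript models used, they lay closest to the authors' own positions. That distance was taken without the offset between the 5′ ends of model and gene, which reaches up to 60 nt in the models searched. Which candidate contexts are truly closest is therefore not established. Coordinates are on GRCh38, exons are those of GENCODE release 29, and capitals mark GGACT on the sense strand.
RAB2B, chr14:21463690-21463718, minus strand, coding sequence, exon 6 of 8: gctagggagcatGGACTtatattcatgga
RAB5A, chr3:19950866-19950894, plus strand, 5′ UTR, exon 2 of 6: gtctgaaattagGGACTtatttcaaattt
RAB12, chr18:8635565-8635593, plus strand, coding sequence, exon 4 of 6: tggaaataagttGGACTgtgaaacggaca
RAB20, chr13:110523632-110523660, minus strand, 3′ UTR, exon 2 of 2: cgagggcctcctGGACTcagactgtgcat
RAB40C, chr16:628930-628958, plus strand, 3′ UTR, exon 7 of 7: ctgggcaccagtGGACTcgccccatggcc
TBC1D1, chr4:37902297-37902325, plus strand, coding sequence, exon 2 of 20: gtttcaccctctGGACTgagatgtgaacc
TBC1D9B, chr5:179865322-179865350, minus strand, coding sequence, exon 21 of 22: gaccagctctccGGACTatcggcactacc
TBC1D22B, chr6:37279412-37279440, plus strand, coding sequence, exon 3 of 13: tgatgaggaagaGGACTtttcctcacctt
The 3 TBC1D stretches printed lay in coding sequence, and the 5 RAB stretches were spread over the 5′ UTR, the coding sequence and the 3′ UTR. Beyond the limit of 20 nt, TBC1D13, TBC1D20, TBC1D22B and TBC1D24 also had GGACT in shared 3′ UTR stretches, so the printed places do not set the families apart. The A of the RAB20 motif lay 21 nt after the stop codon. A motif match describes the sequence and does not show which adenosine was methylated.

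Most RAB and TBC1D genes had at least 1 listed peak. In Ctrl these were 45 of 63 RAB genes (71.4%, Wilson 95% interval 59.3 to 81.1) and 24 of 43 TBC1D genes (55.8%, 41.1 to 69.6), beside 50.1% of all coding genes. In Cas they were 42 RAB genes (66.7%, 54.4 to 77.1) and 28 TBC1D genes (65.1%, 50.2 to 77.6), beside 47.8% of all coding genes. These intervals cover the counting of genes only. The 11 TBC1D3 genes are near-identical copies; without them, 24 of 32 TBC1D genes had a peak in each library (75%, 57.9 to 86.7). RNA levels were not used here, and in such bulk libraries fewer cells with a transcript and less of it per cell cannot be told apart, so a gene with no listed peak is not shown to be unmethylated.

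The 17 RAB genes with no listed peak included RAB3A and RAB3C, which act in neurotransmitter release, RAB17 and RAB25 of epithelial recycling, RAB27B and RAB37 of granule secretion, RAB38 of melanosome formation, and RAB4B, RAB7B, RAB11B, RAB19, RAB26, RAB33A, RAB40A, RAB41, RAB42 and RAB44. The 14 TBC1D genes with none were TBC1D2, TBC1D7, TBC1D10C, TBC1D21, TBC1D22A, TBC1D26, TBC1D28 and 7 TBC1D3 copies. TBC1D7 is a subunit of the TSC complex that restrains mTORC1. Of the markers used to check the line, 3 of 4 HEK293 genes had peaks in both libraries (NEFM, NEFL and VIM, but not INA), 0 of 6 blood genes had any, and 1 of 6 endothelial and fibroblast genes (COL1A1) and 1 of 6 liver and muscle genes (ACTN2) did.

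By the membranes on which the RAB proteins act, the share of genes with a peak in either library is set beside 73.0% of all RAB genes and 52.5% of all coding genes. In the Golgi and endoplasmic reticulum group 13 of 14 genes had a peak (92.9%, 68.5 to 98.7), with 25 peaks in Ctrl and 21 in Cas. RAB6C, a copy of RAB6A described below, was counted there with 3 peaks in Ctrl and 0 in Cas. The other copy, RAB6D, was placed in no group. In the early and recycling endosome group 11 of 15 did (73.3%), each of them in both libraries, with 20 and 18 peaks. In the late endosome, lysosome and autophagy group 8 of 11 did (72.7%), with 11 and 10 peaks. The exocytosis group had peaks on 7 of 12 genes (58.3%), each in both libraries, with 16 peaks in Ctrl and 10 in Cas, and RAB3B accounted for 4 of those 6 peaks of difference. The 3 cilium genes RAB23, RAB28 and RAB34 carried 4 peaks in Ctrl and 7 in Cas, with at least 1 on each gene in each library. Among the 3 RAB40 genes, whose proteins carry a SOCS box and join ubiquitin ligases, RAB40B and RAB40C had 1 peak in each library. RAB20 was the 1 gene of 4 in the remaining group with a peak.

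RAB6B and RAB6A had the most peaks of any RAB. RAB6A, which directs traffic between endosomes, the Golgi and the endoplasmic reticulum, had 4 peaks in Ctrl and 4 in Cas, and each of the 4 overlapped its counterpart. RAB6B, its neuron-enriched relative, had 5 in Ctrl and 4 in Cas, of which 1 Ctrl peak had no counterpart. RAB5A, which drives fusion of early endosomes, had 3 peaks in each library, at 86 to 251, 439 to 616 and 851 to 1162 of its transcript in Ctrl and at 70 to 251, 440 to 663 and 834 to 1160 in Cas. The position listed inside the third peak was 1034 in both. RAB3D, of regulated secretion, also had 3 in each library, all 6 in its 3′ UTR. RAB29, which recruits the kinase LRRK2 to lysosomes, had 3 in Ctrl and 2 in Cas. RAB3B, with 5 peaks in Ctrl and 1 in Cas, differed most and is described below.

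Among TBC1D genes, TBC1D16, a GAP reported to act on RAB4A, had the most peaks, with 5 in Ctrl and 6 in Cas. It has a long transcript of 10936 nt, of which 8516 nt are 3′ UTR, and 4 of its 5 Ctrl peaks and 5 of its 6 Cas peaks lay there. TBC1D1 and TBC1D4, the GAPs phosphorylated in insulin and energy signalling that govern glucose transporter traffic, differed between the libraries in opposite directions. TBC1D1 had 5 peaks in Ctrl and 3 in Cas, and TBC1D4 had 3 in Ctrl and 5 in Cas. TBC1D22B had 3 and 4, TBC1D14, a regulator of autophagy, had 4 and 2, and TBC1D2B had 3 and 3. The dot plot of peak numbers shows all members with a peak.

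**Figure D1:**
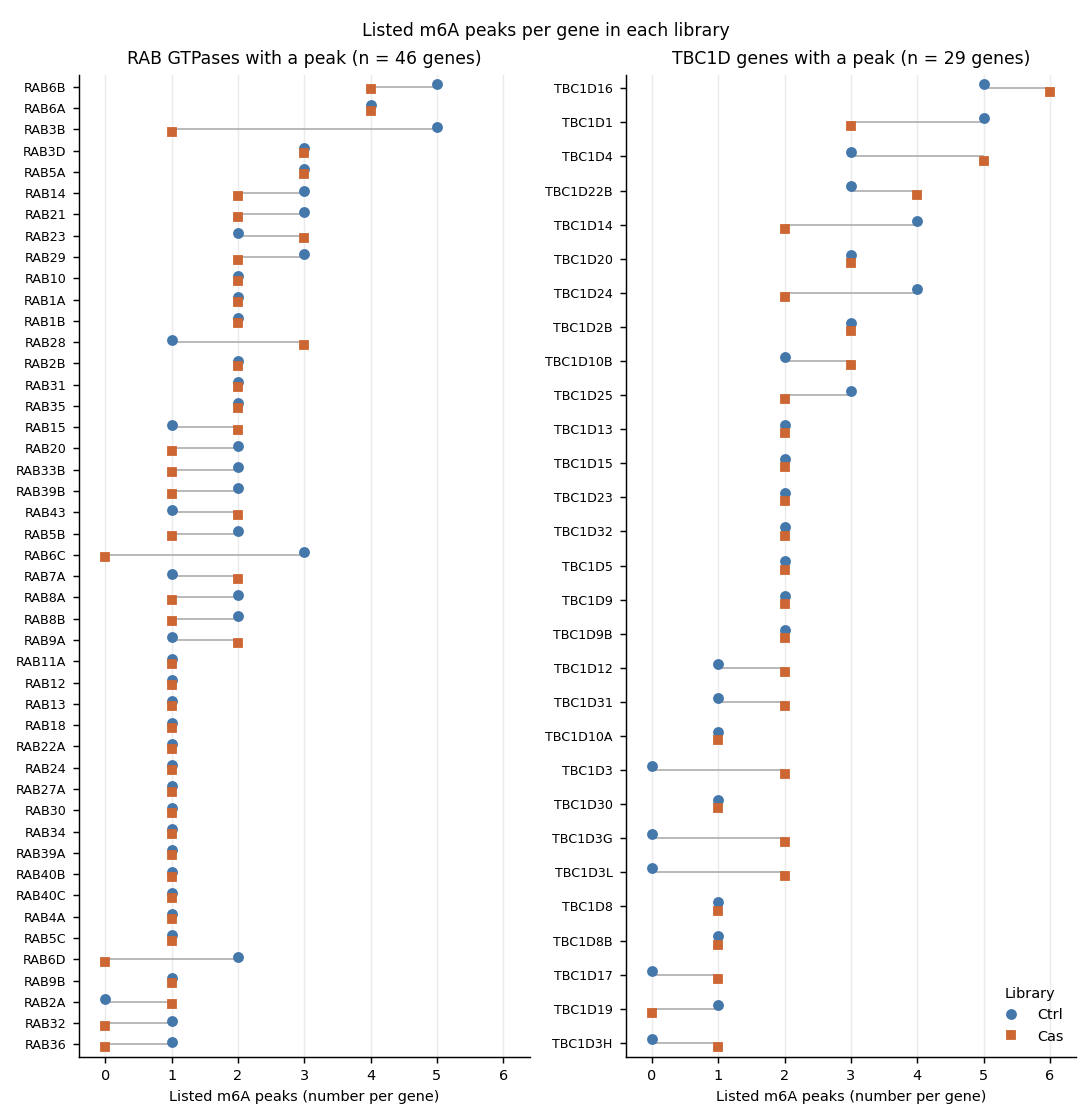
Number of listed m6A peaks (x axis) for each RAB gene (left, 46 genes) and TBC1D gene (right, 29 genes) with a peak in either library; circles stand for Ctrl, squares for Cas, and grey lines join the 2 values. Most genes have equal or nearly equal numbers, with RAB3B (5 and 1) and RAB6C (3 and 0) the widest apart.

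Genes with peaks in both libraries were somewhat more often listed with equal than with different numbers. Genes listed in a single library are left aside here. Of the 41 RAB genes with peaks in both, 24 had equal numbers (58.5%, 43.4 to 72.2), 11 had more in Ctrl and 6 more in Cas. Of the 23 such TBC1D genes, 13 had equal numbers (56.5%, 36.8 to 74.4), 4 had more in Ctrl and 6 more in Cas. Among all coding genes with peaks in both, 55.4% had equal numbers, 20% more in Ctrl and 24.6% more in Cas. The shares of equal numbers in both families were close to that background, within intervals that are wide for so few genes.

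Peaks in Ctrl only were listed for RAB6C, RAB6D, RAB32 and RAB36, and for TBC1D19. That is 4 of the 46 RAB genes with a peak (8.70%) and 1 of the 29 TBC1D genes (3.45%), beside 8.93% of coding genes with a peak. Without peaks on a grid of 10 nt, RAB6D, RAB32 and TBC1D19 had no peak left in either library, and RAB genes listed in a single library then numbered 2 for Ctrl and 5 for Cas. RAB32, which acts in the formation of melanosomes and other lysosome-related organelles, had 1 peak of 270 nt. The TBC1D19 peak was 200 nt wide and the RAB36 peak 144 nt.

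Peaks in Cas only were listed for RAB2A, for TBC1D17 and for TBC1D3, TBC1D3G, TBC1D3H and TBC1D3L. That is 1 of 46 RAB genes (2.17%) and 5 of 29 TBC1D genes (17.2%, 7.60 to 34.5), beside 4.55% of coding genes with a peak. Without the TBC1D3 copies the TBC1D count was 1 of 25 (4.00%). When only the wider 50% of peaks were kept, TBC1D genes listed in a single library numbered 5 for Ctrl and 0 for Cas, and TBC1D17 had no peak left, as also without peaks on the grid. RAB2A, of transport between the endoplasmic reticulum and the Golgi, had 1 peak of 165 nt in its coding sequence, and TBC1D17, a GAP linked to RAB8 and endosome recycling, had 1 of 100 nt, the narrowest width in the lists.

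The TBC1D3 genes lie in a cluster on chromosome 17 that is found in hominoid primates. The models used for TBC1D3, TBC1D3H and TBC1D3L differed from that of TBC1D3G at 6, 1 and 6 positions of about 2065 aligned. Their 7 Cas peaks fell at corresponding places: 216 to 356 and 1391 to 1550 on TBC1D3G, 228 to 368 and 1431 to 1550 on TBC1D3, 230 to 370 and 1411 to 1560 on TBC1D3L, and 1471 to 1658 on TBC1D3H. With so few differing bases, which copy gave rise to the reads is uncertain, and the 4 genes are better read as 1 locus with peaks listed in Cas.

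A difference of 2 or more peaks was listed for 11 members. More in Ctrl had RAB3B (5 and 1), RAB6C (3 and 0), RAB6D (2 and 0), TBC1D1 (5 and 3), TBC1D14 (4 and 2) and TBC1D24 (4 and 2), beside 6.63% of coding genes with a peak. More in Cas had RAB28 (1 and 3), TBC1D4 (3 and 5), TBC1D3, TBC1D3G and TBC1D3L (0 and 2 each), beside 5.49% of coding genes. In RAB3B the peak at 10883 to 11042, far into a 3′ UTR of 11971 nt, overlapped the only Cas peak at 10893 to 11026. Its other 4 Ctrl peaks lay at 441 to 594 in the coding sequence, at 771 to 940 over the stop codon, and at 8501 to 8610 and 11981 to 12160 in the 3′ UTR, and 3 of those 4 had both ends on a grid of 10 nt. In RAB28, a GTPase of cilia and photoreceptors, the 2 added Cas peaks at 341 to 510 and 841 to 960 were also on that grid. Once peaks on the grid were left out, RAB28 had 1 peak in each library, TBC1D4 had 2 in each, RAB3B had 2 in Ctrl and 1 in Cas, RAB6C had 1 in Ctrl and none in Cas, RAB6D had none, and TBC1D14 and TBC1D24 differed by 1. When only the wider 50% of peaks were kept, TBC1D14 had 2 in each library. RAB3B, RAB6C, RAB6D and the TBC1D3 copies then had no peak left in either library, so no difference could remain.

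RAB6C and RAB6D are intronless copies of RAB6A on chromosome 2, whereas RAB6A lies on chromosome 11. Their models were 94.7% and 95% identical to that of RAB6A over 3043 and 3020 aligned bases. They carried 5 peaks, all in Ctrl and all 100 or 110 nt wide, and 4 of the 5 had both ends on the grid. A stretch of 30 bases is shown where peaks of both copies align within the broad RAB6A peak near its stop codon. Among such gap-free stretches before the stop codon, it was picked for having the most bases that differ from RAB6A. Coordinates are on GRCh38, and capitals mark bases that differ from RAB6A.
RAB6A, chr11:73707447-73707476, minus strand: gagctgaatgttatgtttattgaaactagt
RAB6C, chr2:129980554-129980583, plus strand: gGgctgaatgttaCgtttattgaaactagG
RAB6D, chr2:131363253-131363282, minus strand: gGgctgaatgttaCgtttattgaaactagG
Over these 30 bases both copies differ from RAB6A at the same 3 positions. The peaks at 881 to 990 and 1001 to 1100 of RAB6C and at 851 to 960 of RAB6D aligned inside the RAB6A peak, which spanned 826 to 1150 in Ctrl and 823 to 1115 in Cas, with 97.3%, 92.9% and 97.3% identity. The other 2, at 499 to 598 of RAB6C and 521 to 620 of RAB6D, were 97.0% and 87.0% identical to stretches of RAB6A with no listed peak. Whether the reads came from the copies or from RAB6A cannot be told from the lists.

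Peaks of the members were mostly found at the same place in both libraries. Of the 82 RAB peaks in Ctrl, 60 overlapped a Cas peak by at least 1 nt (73.2%, 62.7 to 81.6), and 60 of 69 in Cas overlapped a Ctrl peak (87.0%, 77.0 to 93.0). Of the TBC1D peaks, 43 of 56 in Ctrl (76.8%, 64.2 to 85.9) and 44 of 63 in Cas (69.8%, 57.6 to 79.8) were shared, or 44 of 56 in Cas (78.6%) without the TBC1D3 copies. The backgrounds over coding genes were 76.4% in Ctrl and 78.0% in Cas, and the interval of each of these member shares included its background. Peaks that were not shared were narrower: their median width was 132 nt against 199.5 nt for shared RAB peaks in Ctrl, 124 against 204 nt in Cas, and 180 against 280 nt for TBC1D peaks in Ctrl.

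Shared peaks had a median overlap of 0.782 of their joint span in 60 RAB pairs and 0.697 in 44 TBC1D pairs, against 0.758 for all coding genes. The position listed inside the peak lay within 20 nt in both libraries for 30 RAB pairs (50%) and 17 TBC1D pairs (38.6%), against 49.8% for all coding genes. In many peaks that position lies close to the start, so its agreement partly repeats that of the limits. A peak of RAB39B, a neuronal RAB whose loss causes X-linked intellectual disability, had the same limits of 696 to 865 and the same inner position of 797 in both. A TBC1D16 peak had the same limits of 3546 to 3717. RAB18, of lipid droplets and the endoplasmic reticulum, had 1 peak with the inner position 784 in both.

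In some members the places of peaks differed between the libraries, with or without a difference in number. TBC1D15, a GAP for RAB7 at mitochondria, had 2 peaks in each library and none shared: 157 to 321 and 1170 to 1377 in Ctrl, 352 to 592 and 969 to 1153 in Cas. The last peak of TBC1D9 lay at 3592 to 3829 in Ctrl and at 3942 to 4090 in Cas. RAB15 had no shared peak either, with 1 in Ctrl and 2 in Cas. The widest peaks also differed between the libraries. TBC1D23, which helps capture endosome-derived vesicles at the Golgi, had a Ctrl peak of 1166 nt (1291 to 2456) where the Cas peak spanned 441 nt (1291 to 1731). RAB5B had a Cas peak of 782 nt (341 to 1122) around a Ctrl peak of 142 nt (690 to 831). The widest RAB peak in Ctrl was that of RAB39A at 407 nt, matched by one of 414 nt in Cas, and the widest TBC1D peak in Cas, of 638 nt, was in TBC1D2B, over one of 440 nt in Ctrl.

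TBC1D genes had more peaks on average than RAB genes, and the order per length depended on the measure. Genes with a peak had 1.82 ± 1.05 peaks (SD over 45 genes) for RAB and 2.33 ± 1.24 (24 genes) for TBC1D in Ctrl, and 1.64 ± 0.850 (42 genes) and 2.25 ± 1.17 (28 genes) in Cas. The means over all coding genes were 2.24 and 2.32. A single peak was listed for 48.9% of RAB and 29.2% of TBC1D genes in Ctrl, and for 54.8% and 21.4% in Cas. The transcripts differed in length, with medians of 2999 nt for RAB and 4466 nt for TBC1D, and in coding length, with medians of 645 and 2283 nt. The median number of peaks per kb of transcript was 0.571 for RAB and 0.512 for TBC1D in Ctrl, and 0.566 and 0.512 in Cas, against 0.577 and 0.607 for all coding genes. The interquartile ranges of the families overlapped (0.397 to 0.751 and 0.387 to 0.605 in Ctrl), and in Cas the order of the medians turned to 0.384 for RAB and 0.396 for TBC1D when only the wider 50% of peaks were kept, and to 0.493 and 0.512 when peaks within 100 nt were merged. Over the summed length of the transcripts, RAB had 0.503 and TBC1D 0.502 peaks per kb in Ctrl, and 0.441 and 0.511 in Cas.

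RAB peaks gathered at the stop codon more than TBC1D peaks did. Peaks were placed by their centre on transcripts whose GENCODE model held every listed peak and a complete coding sequence, which was possible for 41 RAB and 22 TBC1D genes. Those centred within 200 nt of the stop codon made up 36.6% for RAB in Ctrl (26 of 71, 26.4 to 48.2) and 41.7% in Cas (25 of 60, 30.1 to 54.3). For TBC1D they made up 22.4% (11 of 49, 13.0 to 35.9) and 19.6% (10 of 51, 11 to 32.5), against 23.0% and 22.0% for all coding genes. That window held 10.8% of the RAB and 7.82% of the TBC1D transcript bases in Ctrl. Of 41 RAB genes that could be placed, 23 had such a peak in both libraries (56.1%, 41.0 to 70.1), against 9 of 22 TBC1D genes (40.9%, 23.3 to 61.3) and 37.7% of all coding genes. RAB had the higher share in both libraries under each alternative run, although the size depended on the setting. The values were 19.7% against 14.3% in Ctrl and 20% against 11.8% in Cas with a window of 100 nt, and 63.3% against 35.7% and 64.5% against 25.9% with the wider 50% of peaks. On models starting at most 10 nt from the gene's start, few peaks were left. The values there were 28.6% of 14 against 13.3% of 15 in Ctrl, and 25% of 12 against 8.33% of 12 in Cas. Their intervals overlapped (11.7 to 54.6 and 3.74 to 37.9 in Ctrl, 8.89 to 53.2 and 1.49 to 35.4 in Cas).

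Coding length moved with this difference. Among all coding genes with 500 to 800 nt of coding sequence, 36.3% of Ctrl peaks and 34.9% of Cas peaks lay in the window, and for the members in that range, which were mostly RAB genes, the values were 37.3% (26.7 to 49.3) and 43.6% (31.4 to 56.7). Among all coding genes with 1200 to 4000 nt, 21.3% and 20% did, and for the members there 22.4% (13.0 to 35.9) and 19.6% (11 to 32.5). Each member interval included the value for genes of similar coding length. These length ranges were chosen after the shares had been seen.

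RAB genes with a peak at the stop codon in both libraries came from every organelle group with a placed gene except the RAB40 genes. All 3 RAB5 paralogs had one: RAB5A centred 176 nt before the stop codon in Ctrl and 185 nt before it in Cas, RAB5B 66 and 95 nt before it, and RAB5C 69 and 95 nt before it. RAB39A and RAB39B were alike, with centres 144 and 161 nt before the stop codon in Ctrl. RAB7A of late endosomes had a peak across the stop codon in both libraries. The models of these genes start at most 98 nt from the start of the RefSeq gene, so the distances are approximate. For RAB27A, RAB30, RAB33B and RAB13, also counted here, that offset was 48729, 37328, 15431 and 5342 nt, so their placement is less certain. Large offsets also occurred among placed TBC1D genes, such as 65088 nt for TBC1D30 and 1724 nt for TBC1D5.

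**Figure D2:**
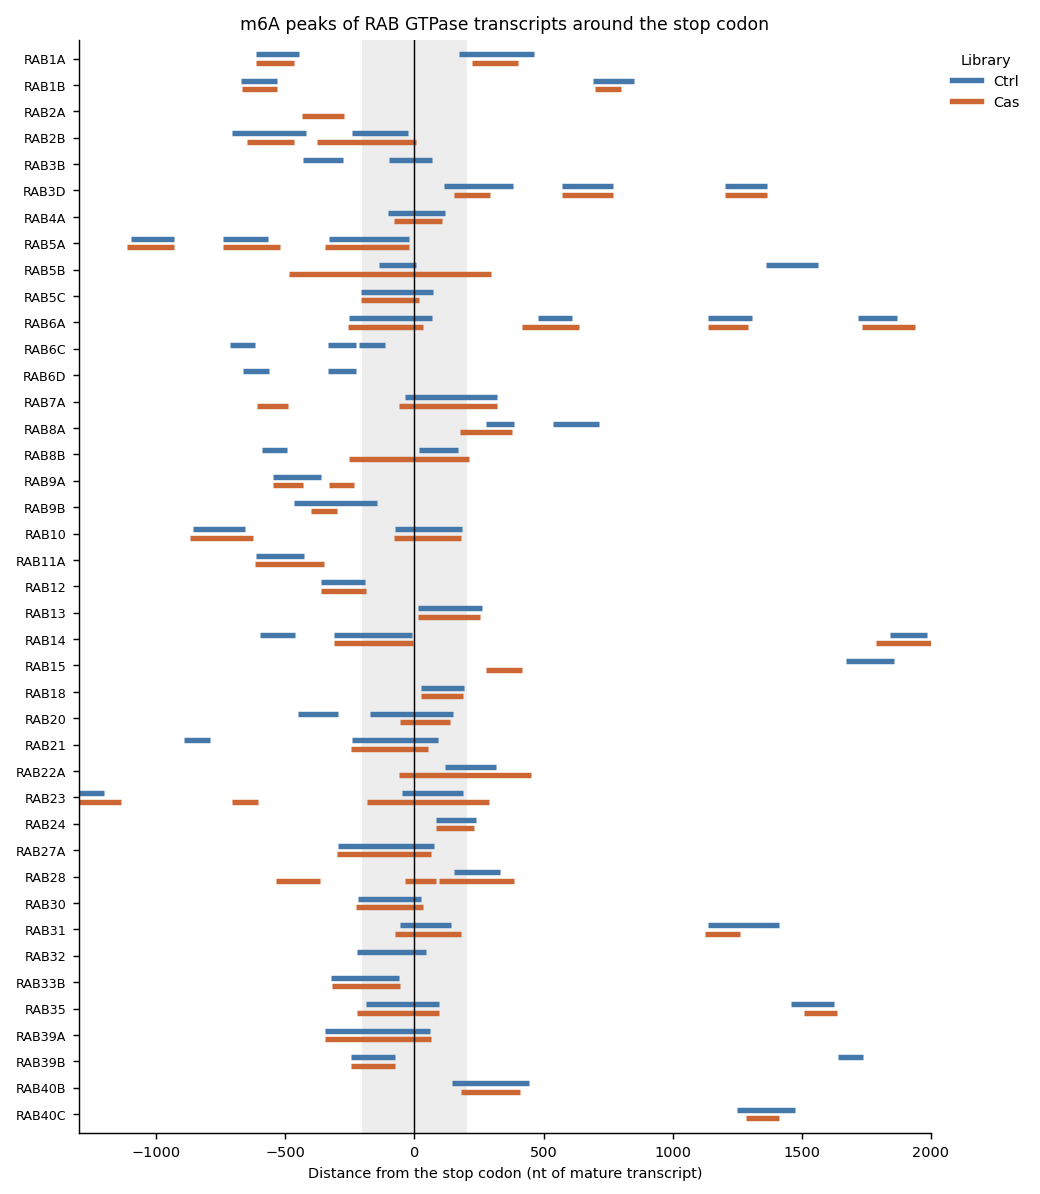
Listed peaks of the 41 RAB genes that could be placed, as bars at their distance from the stop codon (x axis, nt of transcript, negative before it; blue, Ctrl; orange, Cas; grey band, 200 nt to either side). Of 131 peaks, 8 lie beyond the axis, and 23 of the 41 genes have peaks centred in the band in both libraries.

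RAB genes also had peaks elsewhere, some of them beside one at the stop codon. In RAB1A, which acts between the endoplasmic reticulum and the Golgi, a Ctrl peak was centred 84 nt after the coding start and another in the 3′ UTR, and both were shared with Cas. RAB1B, its close relative, had a peak early in its transcript and another in the 3′ UTR, both shared. RAB2B, besides its peak at the stop codon, had a shared peak centred 85 nt after the coding start in Ctrl. RAB9A and RAB9B, of transport from late endosomes to the Golgi, had shared peaks in the coding sequence and none at the stop codon. Peaks centred in the 5′ UTR in both libraries were listed for RAB5A and for RAB23, a brake on Hedgehog signalling, which both also had one at the stop codon. They were listed for RAB10 too, whose model starts 825 nt from the start of the RefSeq gene, so that its placement is uncertain.

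Coding sequence outside the window held a smaller share of RAB peaks than of TBC1D peaks or of peaks at large. Its share of TBC1D peaks was 42.9% in Ctrl (21 of 49, 30 to 56.7) and 52.9% in Cas (27 of 51, 39.5 to 65.9), against 21.1% (15 of 71, 13.2 to 32.0) and 21.7% (13 of 60, 13.1 to 33.6) for RAB, and 50% and 52.2% over all coding genes. Both TBC1D intervals included the value over all coding genes, and both RAB intervals lay below it. Coding sequence outside the window made up 44.9% of the TBC1D and 12% of the RAB transcript bases in Ctrl. The RAB share became 6.67% and 6.45% when only the wider 50% of peaks were kept. It was 42.9% of 14 and 41.7% of 12 peaks on models starting at most 10 nt from the gene's start. It stayed below that of TBC1D in both. Such a peak was listed in both libraries for 13 of 22 TBC1D genes (59.1%, 38.7 to 76.7), among them TBC1D1, TBC1D4, TBC1D16 and TBC1D22B, and for 7 of 41 RAB genes (17.1%, 8.53 to 31.3), against 52.2% of all coding genes. In TBC1D4 the peak at 2781 to 3140 in Ctrl and 2751 to 3190 in Cas was centred in exon 15 of 21, and the last peak sat over the stop codon with the inner position 4222 in both. The last exon held the centres of 63.3% and 51.0% of TBC1D peaks and of 76.1% and 70.0% of RAB peaks, in Ctrl and Cas in that order, against 51.2% and 48.6% for all coding genes.

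**Figure D3:**
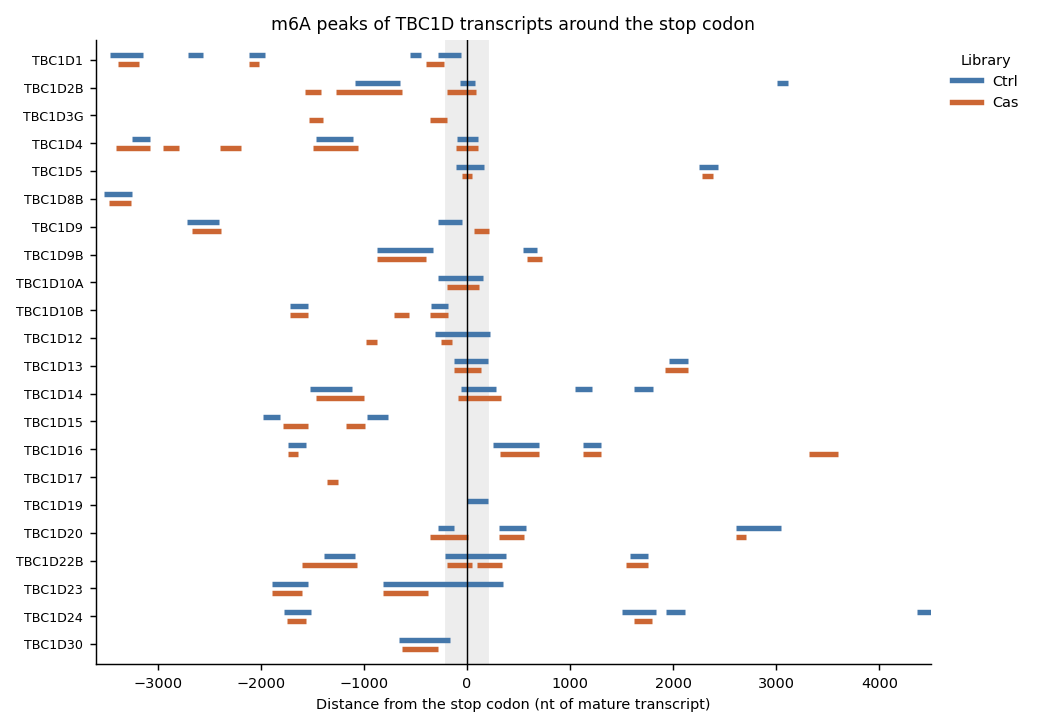
Listed peaks of the 22 TBC1D genes that could be placed, as bars at their distance from the stop codon (x axis, nt of transcript, negative before it; blue, Ctrl; orange, Cas; grey band, 200 nt to either side). Of 100 peaks, 4 lie beyond the axis; many bars lie far before the stop codon, in the coding sequence, and 9 of the 22 genes have peaks centred in the band in both libraries.

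GGACT was more frequent in TBC1D than in RAB peaks. It occurred in 46.9% of TBC1D peaks in Ctrl (23 of 49, 33.7 to 60.6) and 41.2% in Cas (21 of 51, 28.8 to 54.8), and in 18.3% (13 of 71, 11 to 28.8) and 28.3% (17 of 60, 18.5 to 40.8) of RAB peaks. The intervals of the families did not overlap in Ctrl and overlapped in Cas. Over all coding genes the shares were 27.5% and 25.7%. Windows of 200 nt along the same transcripts held GGACT in 20.1% for TBC1D and 13.0% for RAB in Ctrl, and in 17.1% for all coding genes. Within 50 nt of peak centres, where width plays no part, the shares were 26.5% and 25.5% for TBC1D, 12.7% and 15% for RAB, and 15.2% and 14.2% for all coding genes. The intervals of TBC1D and RAB overlapped there (16.2 to 40.3 and 6.81 to 22.4 in Ctrl).

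Counted by gene, 13 of 22 TBC1D genes and 10 of 41 RAB genes had a GGACT in a peak of both libraries, against 34.7% of all coding genes. These counts are not independent of the shares above, since TBC1D genes also had more peaks, and wider ones in Ctrl (median 231 against 177.5 nt). Of the stretches shared between the libraries on the transcripts with the closest models, 13 of 30 on TBC1D genes held GGACT (43.3%, 27.4 to 60.8) and 8 of 34 on RAB genes (23.5%, 12.4 to 40.0). On its model, the A of the TBC1D9B motif printed above lay 5 nt from the inner position 3023 that both libraries list. That model starts 38 nt from the start of the RefSeq gene, so the true distance is uncertain. DRACH, which reads A, G or T, then A or G, then A, C, and A, C or T, was searched on the sense strand and includes GGACT. It occurred in 97.2% and 96.7% of RAB peaks and in 100.0% and 96.1% of TBC1D peaks, but also in 95.7% to 96.1% of 200-nt windows of the same transcripts, close to its share of peaks.

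Several GTPases could be set beside GAPs known to act on them. RAB7A had 1 peak in Ctrl and 2 in Cas, and its GAPs TBC1D5, which works with retromer, and TBC1D15 each had 2 and 2. RAB35, of endosome recycling, had 2 and 2, and its GAPs TBC1D13, TBC1D10A and TBC1D10B had 2 and 2, 1 and 1, and 2 and 3. RAB1A and RAB1B had 2 and 2 each, and TBC1D20, a RAB1 GAP needed for lens and germ cell development, had 3 and 3. RAB33B, which binds the autophagy factor ATG16L1, had 2 and 1, and its GAP TBC1D25 had 3 and 2. RAB8A, RAB10 and RAB14, substrates of TBC1D1 and TBC1D4, had 2 and 1, 2 and 2, and 3 and 2. Apart from TBC1D1 and TBC1D4, which differed by 2 in opposite directions, each gene named here differed by at most 1 peak between the libraries. These genes were picked after their values had been seen, so that statement holds for them only. Small differences were the rule at large. Of coding genes with a peak, 6.63% had at least 2 more in Ctrl and 5.49% at least 2 more in Cas.

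Among other regulators of the RAB cycle, peaks in either library were listed for 32 of 39 exchange factors (82.1%, 67.3 to 91.0) and 26 of 36 effectors (72.2%, 56.0 to 84.2), against 52.5% of all coding genes. They were listed for 8 of 11 TBC-domain GAPs with other names (72.7%, 43.4 to 90.3), an interval that includes that share, and for both RAB3GAP subunits. The median number per exchange factor with a peak was 2.00 in each library, as for all coding genes, and for effectors 3.00. Exchange factor transcripts were longer, with a median of 5594 nt against 3329 nt for all coding genes. SBF1, an exchange factor of the myotubularin family, had 6 in Ctrl and 7 in Cas, GAPVD1, which acts on RAB5, had 5 and 6, and MADD, which acts on RAB3 and RAB27, had 4 and 6. RAB3GAP2 had 5 and 6 and its partner RAB3GAP1 had 2 and 2. CHML and CHM, the escort proteins that present RABs for prenylation, had 4 and 5, and 3 and 4. Of the effectors, RAB11FIP1 had 6 and 6, EHBP1 had 7 and 5 and BICD2, a dynein adaptor for RAB6, had 5 and 5. Of the other TBC-domain GAPs, RABGAP1L and TBCK had 3 and 4 each and USP6NL, a GAP for RAB5, had 3 and 3.

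In these lists, peaks in Ctrl only were listed for EVI5L and SGSM3 (2 peaks each), 2 of the 8 other TBC-domain GAPs with a peak. The exchange factors were HPS1 (2), RAB3IL1 (1) and DENND2B (1), 3 of the 32 with a peak. The effectors were SYTL5 (2) and RIMS2 (2), 2 of the 26 with a peak. Among all coding genes with a peak, 8.93% had peaks in Ctrl only. RILP, the RAB7 effector that links lysosomes to dynein, had 1 peak in Cas and none in Ctrl. It was the 1 effector of 26 listed in Cas only, beside 4.55% of coding genes with a peak. RABGGTB, the catalytic subunit of the RAB prenyltransferase, had no listed peak in either library.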

How the data were processed

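MeRIP-seq peaks of HEK293T cells were analysed for 2 immunoprecipitated libraries, named Ctrl and Cas. Per the submitters' processing notes, reads were handled with tools that include fastp, HISAT2, SAMtools and HOMER on GRCh38. How peaks were called, at what threshold and with what use of input was not given in the sources used here, and the 2 input libraries were not used here. Each entry of the deposited lists holds a RefSeq transcript, 2 positions that bound the peak along it, and a position within the peak that is left unexplained, with no score or depth.

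Gene symbols came from a RefSeq table (GRCh38.p14): 10935 of 11254 transcripts matched directly, 220 after removal of a copy suffix and 66 through GENCODE release 29, and 33 did not match. Place and sequence were read on GENCODE release 29 partners that hold every listed peak and a complete coding sequence (8550 transcripts). Their 5′ ends can differ from those of the RefSeq transcripts, so positions carry that offset, and printed sites lie within the peak with or without it, on partners offset by at most 60 nt. Overlaps used bedtools 2.31.1, and Wilson 95% intervals cover counting of genes or peaks only. Scripts ran on Python 3.11.15 with pandas 2.3.3 and were tested on simulated data.

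Peaks with both ends on a grid of 10 nt were left out in an alternative. The members, role lists and tests were chosen with earlier results of these data known. Every member could be named. Values were given in full for members with peaks in 1 library only, the 6 per family with most peaks (ties by covered bases), differences of 2 or more peaks, and the widest peaks. For the regulator and effector lists they were given for the 3 with most peaks and those in 1 library only, and a gene that this rule takes is not reported here. RAB39B, other paralogs, GAP pairs and further members were described after their values were seen.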

Additional observations from a re-analysis of the deposited data

How the results depend on the processing

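No paired analysis was possible because Ctrl and Cas were 1 library each, which also left no replicate to omit. Of 126 alternative values of the family results, 40 moved and 86 did not, and of the 51 alternative values for single members 29 moved, 22 did not and none reversed. The difference between libraries ended for 11 of 17 members with the wider 50% of peaks and for 6 of 17 without peaks on the 10-nt grid. Of the 11, all but TBC1D14 had no peak left in either library. Of the 6, only RAB28 and TBC1D4 kept peaks.

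When only the wider 50% of peaks were kept, RAB genes with peaks in both libraries fell to 22, while 7 had them in Ctrl alone and 4 in Cas alone, and TBC1D genes with peaks in 1 library only became 5 (Ctrl) and 0 (Cas). Peaks then numbered 34 and 33 for RAB and 33 and 30 for TBC1D in Ctrl and Cas, and TBC1D peaks per kb in Ctrl were 0.333. Shared shares were 63.6% (TBC1D, Ctrl) and 69.7% (RAB, Cas). The RAB stop codon share rose to 63.3% and 64.5%, that of coding sequence became 6.67% and 6.45%, and DRACH was in 100.0% of RAB Cas peaks. Without peaks on the 10-nt grid, RAB genes in 1 library only were 2 (Ctrl) and 5 (Cas), and TBC1D peaks per kb in Cas were 0.376. Without the TBC1D3 copies, 1 TBC1D gene had peaks in Cas only. Per kb of coding sequence, medians were 2.81 and 1.68 for RAB and 0.839 and 0.958 for TBC1D. At a reciprocal overlap of 50%, shared shares were 60.7% and 54.0% for TBC1D and 76.8% for RAB in Cas. A stop codon window of 100 nt gave RAB 19.7% and 20% there and 32.4% and 35.0% in coding sequence. With models limited to those starting at most 10 nt from the RefSeq gene's start, few peaks were left, 14 and 12 for RAB. RAB coding shares were then 42.9% and 41.7%, and Cas stop codon shares were 25% (RAB) and 8.33% (TBC1D, 12 peaks). Within 50 nt of peak centres, DRACH was in 88.7% of RAB Ctrl peaks, and GGACT in 15% of RAB Cas peaks and in 26.5% and 25.5% of TBC1D peaks. The cause of these shifts was not tested, beyond the fewer peaks, shorter spans or narrower windows that the alternatives themselves bring. An alternative chosen after seeing the data moved positions by the difference between the 5′ ends of model and RefSeq gene. It moved none of 8 values outside the interval of the main value. It left out models with large offsets (64 of 71 RAB peaks in Ctrl were kept), so it does not cover the genes whose placement is least certain. Depth is unknown, so no detection limit could be given for a gene with no listed peak.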
